A study of Mus musculus with 8 samples.

Results

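Among the genes that hypoxia-inducible factor (HIF) is known to induce outside glycolysis, 10 were followed in mouse CD8+ T cells treated with DADA or its solvent DMSO: *Hilpda*, *P4ha1*, *P4ha2*, *Ndrg1*, *Vegfa*, *Ankrd37*, *Kdm3a*, *Mxi1*, *Ak4* and *Car12*. They were taken by symbol from a table of 22520 genes and assembled transcripts, all 10 were found, and all 10 passed a filter, 1 FPKM or more in at least 4 libraries of the 8, that left 10666 of them to test. FPKM is the number of sequenced fragments of a gene, divided by the length of its transcript and by the total mapped in that library. Because the 10 genes were selected on measured values of the same contrast, their differences between DADA and DMSO are given as a description, without p-values.

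DADA (diisopropylamine dichloroacetate) inhibits pyruvate dehydrogenase kinase, and the study asked how it affects the differentiation of CD8+ T cells toward exhaustion. CD8+ T cells from the spleen of wild-type mice received anti-CD3 and anti-CD28 antibodies with IL-2 for 6 days, a model of persistent TCR stimulation in culture. The 4 DMSO libraries, labelled Ctrl, received solvent from day 3, and the 4 DADA libraries received 40 µM DADA over the same days. Bulk RNA-seq was done at day 6. Both groups thus shared the stimulation, the cytokine and the day of harvest, and differed in the last days by DADA. The labels enter control or model as genotype, although the treatment text names no allele. The study's methods list young adult male C57BL/6J mice among several strains, without tying a strain, sex or age to these libraries. Whether each library came from a separate mouse is not stated either, so p-values measure only the spread between these libraries. No measure of oxygen or of HIF protein is part of the table.

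HIF is a transcription factor made of an oxygen-regulated alpha subunit (*Hif1a*, *Epas1*) and the stable beta subunit *Arnt*. With oxygen present, prolyl hydroxylases (*Egln1*, *Egln2*, *Egln3*) mark the alpha subunit, the ubiquitin ligase component *Vhl* binds it and it is degraded. In activated T cells the alpha subunit also accumulates with oxygen present, downstream of TCR and mTOR signaling. The HIF dimer binds short DNA elements with the core ACGTG or GCGTG, and its targets cover glucose use, matrix, vessel growth, lipid storage and chromatin as well as the sensors *Egln1* and *Egln3* themselves.

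The letters of this core were looked for in the 250 bases before the annotated transcription starts (RefSeq, mouse build GRCm38.p6), on both strands. A CACGTG counts once on each strand, and the 2 cores can share bases with each other where they lie on opposite strands. Of the 10 genes, 9 had 1 or more entries, 18 in all, and *Ndrg1* had none. ACGTG was in 8 of the 18 entries (44.4%) and either core in 12 (66.7%), against 22.45% and 57.35% of the 10477 entries of genes tested. Entries of a gene can overlap and are not independent. Those of *Ak4* that begin at chr4:101419039, 101419062 and 101419071 hold the same cores, which are thus counted more than once. By gene, 7 of the 9 had an ACGTG in at least 1 entry, 8 had either core, and *Car12* had neither. A gene with more entries has more chances of a match. No share by gene over all genes tested is given, so the counts by gene cannot be set against the shares by entry. Vegfa, Hilpda, Kdm3a and Mxi1 had entries without either core beside entries that hold one. Stretches of 4 genes are shown, since *P4ha1* and *P4ha2* encode the same kind of subunit but differed in the size of their difference, *Ankrd37* held the most cores, and *Car12* was the only gene that was lower with DADA. Capitals mark ACGTG or GCGTG, or CACGT or CACGC where the core is on the other strand. They lie at chr10:59323046-59323295 (plus strand, *P4ha1*), chr11:54100674-54100923 (plus strand, *P4ha2*), chr8:45999868-46000100 (minus strand, *Ankrd37*) and chr9:66713436-66713685 (plus strand, *Car12*), upstream of the gene's annotated start.
P4ha1: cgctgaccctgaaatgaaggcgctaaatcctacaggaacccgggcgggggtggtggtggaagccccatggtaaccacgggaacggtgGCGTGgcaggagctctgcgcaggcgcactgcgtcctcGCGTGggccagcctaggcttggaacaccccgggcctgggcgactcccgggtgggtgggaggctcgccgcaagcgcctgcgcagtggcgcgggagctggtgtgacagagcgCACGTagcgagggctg
P4ha2: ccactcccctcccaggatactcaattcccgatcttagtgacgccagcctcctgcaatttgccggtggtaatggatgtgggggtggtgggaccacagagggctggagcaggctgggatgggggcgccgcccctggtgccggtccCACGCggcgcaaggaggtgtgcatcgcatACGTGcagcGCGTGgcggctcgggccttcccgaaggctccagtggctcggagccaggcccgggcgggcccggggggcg
Ankrd37: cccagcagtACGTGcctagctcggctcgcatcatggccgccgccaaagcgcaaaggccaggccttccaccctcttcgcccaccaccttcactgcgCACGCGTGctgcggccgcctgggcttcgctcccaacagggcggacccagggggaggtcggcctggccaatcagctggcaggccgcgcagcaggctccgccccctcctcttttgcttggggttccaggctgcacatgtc
Car12: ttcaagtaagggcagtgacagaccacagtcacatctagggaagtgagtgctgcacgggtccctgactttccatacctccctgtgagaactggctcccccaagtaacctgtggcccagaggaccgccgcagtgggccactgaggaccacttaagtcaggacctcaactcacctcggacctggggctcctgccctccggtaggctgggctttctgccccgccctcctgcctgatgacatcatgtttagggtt
The *P4ha1* and *P4ha2* stretches each hold 3 cores and end at the start site. In *P4ha1* the cores begin 163, 126 and 16 bases before the start, and in *P4ha2* 107, 78 and 69 bases before it. The *Ankrd37* stretch ends 17 bases before the start, with cores at 241, 155 and 152 bases, the last 2 overlapping on opposite strands, and a further ACGTG lies at 6 bases, outside the stretch. A match of letters is a description and does not show that HIF is bound.

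The labelled cell type was checked first. All 5 CD8 T cell markers found (*Cd3d*, *Cd3e*, *Cd3g*, *Cd8a*, *Cd8b1*) passed the filter, with a summed level of 674 to 680.1 FPKM with DMSO and 776 to 805 FPKM with DADA. Of the markers of other cells, 1 of 4 for CD4 T cells, 1 of 5 for B cells, 1 of 7 for myeloid cells, 0 of 3 for NK cells, 0 of 6 for erythroid cells and 1 of 5 for stromal cells passed it. The defining genes *Pax5*, *Csf1r*, *Adgre1*, *Cdh5*, *Col3a1* and *Hbb-bs* were listed at 0 in all 8 libraries. The summed levels were 16.3 to 17.4 with DMSO and 15.3 to 15.8 FPKM with DADA for CD4 T cells, 2.59 to 3.54 and 2.36 to 3.09 for B cells, 3.51 to 3.99 and 5.15 to 5.73 for myeloid cells, 0 to 0.0959 and 0.144 to 0.346 for NK cells, 0.0920 to 0.400 and 0.0726 to 0.426 for erythroid cells, and 7.04 to 8.18 and 9.34 to 10.4 for stromal cells. The markers that passed were *Zbtb7b* (CD4 T cells), *Cd79b* (B cells), *Cd68* (myeloid) and *Pecam1* (stromal), and each made up most of its sum. *Cd68* was at 3.43 to 3.90 FPKM with DMSO and 5.09 to 5.545 FPKM with DADA. *Pecam1* was at 6.97 to 8.10 and 9.27 to 10.2 FPKM. The myeloid, NK and stromal sums were thus higher with DADA, the myeloid and stromal ones mainly through a single gene each. Their part in the results was not tested. In bulk libraries, fewer cells of a type and less RNA per cell cannot be told apart. The depth, estimated from the steps between low FPKM values, was 13670000 to 16210000 fragments per library with DMSO and 15360000 to 18700000 with DADA.

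All 4 DADA libraries were above all 4 DMSO libraries for 9 of the 10 genes, and all below for *Car12*. Over all genes tested, DADA lay wholly above for 28.4% and wholly below for 32.2%. By limma on log2(FPKM + 1) with adjusted p under 0.05, 9 were called higher and 1 lower, beside 30.9% of all genes called higher, 35.3% called lower and 66.2% called in either direction. A log2 difference of at least 1 was reached by 7 of the 10, beside 3.56% of all genes. The median difference was 1.95 over the 10 genes and -0.02 over all genes tested. Since the genes were selected on this contrast, nothing is read from these shares. Summed over the 10 genes, the level was 142 to 148 FPKM in the DMSO libraries and 544 to 553 FPKM in the DADA libraries.

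**Figure D1:**
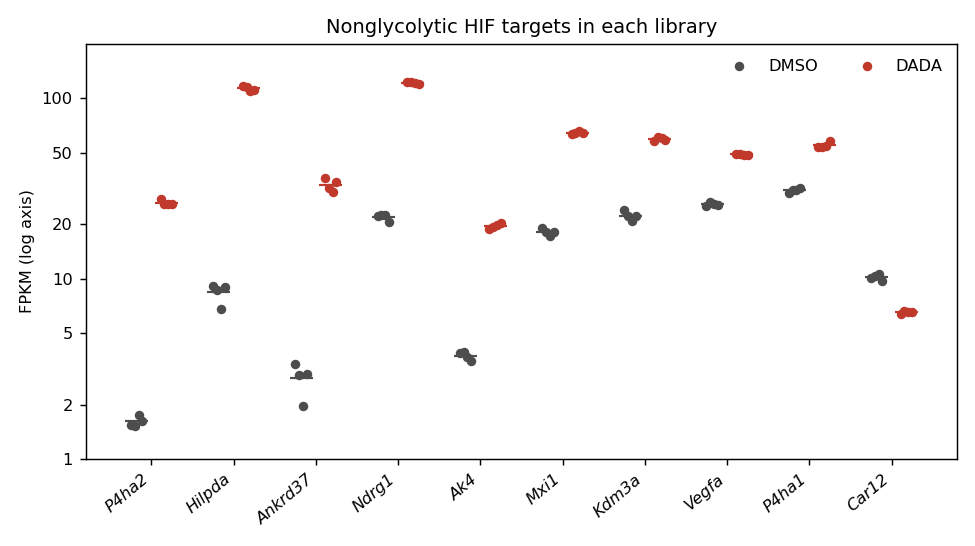
FPKM (log axis) of each of the 10 genes in the 4 DMSO libraries (grey) and the 4 DADA libraries (red), with a line at each group's mean. The groups do not overlap for any gene, and *Car12*, at the right, is the 1 gene with lower values in DADA, between 6.37 and 6.58 FPKM.

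Among the genes of lipid storage, nucleotides and pH, *Hilpda* and *Ak4* were higher and *Car12* was lower with DADA. *Hilpda* (ENSMUSG00000043421) encodes a lipid droplet protein that inhibits the triglyceride lipase encoded by *Pnpla2*. *Hilpda* was at 9.08, 8.68, 6.80 and 9.01 FPKM in DMSO libraries 1 to 4 and at 118, 115, 109.8 and 112 FPKM in DADA libraries 1 to 4. DMSO 3 was the lowest of its group, and the groups lay far apart. The means were 8.40 ± 1.08 and 114 ± 3.44 FPKM (SD, n = 4), a ratio of 13.5, and the log2 difference was 3.62 (SE 0.0743), position 7 from the top of the 10666 genes. With a pseudocount of 0.1 its log2 difference was 3.75, below that of *P4ha2* (3.95), which also had the larger ratio of means. *Pnpla2* itself was at 19.7 ± 1.22 and 21.0 ± 2.75 FPKM and was not called (limma, adjusted p = 0.355). The ratio of *Hilpda* to *Pnpla2* FPKM was thus 0.350 to 0.481 in the DMSO libraries and 4.60 to 5.90 in the DADA libraries. Among other proteins at the lipid droplet, *Plin2*, a coat protein, rose from 16.5 ± 0.668 to 34.8 ± 0.982 FPKM (log2 difference 1.03, limma, adjusted p = 4.1e-09). *Plin3*, a related coat protein, rose by a log2 difference of 0.64 (limma, adjusted p = 7.63e-06), *Abhd5*, the activator of the lipase, was at 4.58 ± 0.115 and 4.85 ± 0.258 FPKM (limma, adjusted p = 0.216), and *G0s2*, another inhibitor of the lipase, stayed below the filter.

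*Ak4* (ENSMUSG00000028527) encodes an adenylate kinase of the mitochondrial matrix, which moves phosphate between nucleotides. Its levels were 3.85, 3.92, 3.67 and 3.51 FPKM with DMSO and 18.9, 19.4, 19.7 and 20.3 FPKM with DADA. Every DADA library was thus well above the highest DMSO library, with a narrow spread in each group. The means were 3.74 ± 0.186 and 19.6 ± 0.611 FPKM (SD, n = 4), a ratio of 5.24, with a log2 difference of 2.12 (SE 0.0417). Its relatives *Ak3*, also of the matrix, and *Ak6*, of the nucleus, went the other way. *Ak3* fell from 26.2 ± 1.13 to 22.5 ± 0.344 FPKM (log2 difference -0.21, limma, adjusted p = 0.000305), and *Ak6* from 112 ± 3.62 to 85.1 ± 3.84 FPKM (-0.39, limma, adjusted p = 5.35e-06). The ratio of *Ak4* to *Ak3* FPKM was 0.126 to 0.152 in the DMSO libraries and 0.837 to 0.921 in the DADA libraries. *Ak4* therefore remained below *Ak3* in every library.

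*Car12* (ENSMUSG00000032373) encodes a membrane carbonic anhydrase whose catalytic site faces outward, where it takes part in pH control. It was at 10.03, 10.3, 10.6 and 9.70 FPKM with DMSO and at 6.37, 6.58, 6.54 and 6.51 FPKM with DADA. The highest DADA value was below the lowest DMSO value. The mean went from 10.2 ± 0.382 to 6.50 ± 0.0917 FPKM (SD, n = 4), lower by 36.0% of the DMSO mean, and the log2 difference was -0.57 (SE 0.0379). *Car9*, the other membrane carbonic anhydrase commonly named as a HIF target, stayed below the filter at 0.339 ± 0.0931 and 0.329 ± 0.207 FPKM, with overlapping groups. Of the relatives, *Car13* was 0.657 ± 0.117 FPKM with DMSO and 2.12 ± 0.204 FPKM with DADA (log2 difference 0.92). *Car5b*, a mitochondrial form, was 0.646 ± 0.0579 and 1.26 ± 0.199 FPKM (0.46). Both passed the filter only through the DADA libraries, so no p-value is given for them. The call of *Car5b* was lost with quantile normalization.

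The collagen genes differed from each other in size. *P4ha1* and *P4ha2* encode alternative catalytic alpha subunits of collagen prolyl 4-hydroxylase, which pairs them with the beta subunit encoded by *P4hb*. *P4ha2* (ENSMUSG00000018906) was at 1.55, 1.52, 1.76 and 1.63 FPKM with DMSO and at 27.7, 26.1, 25.8 and 26.0 FPKM with DADA. It was the lowest of the 10 genes in every DMSO library. The means were 1.61 ± 0.109 and 26.4 ± 0.906 FPKM (SD, n = 4), a ratio of 16.3 and the largest ratio of the 10, and the log2 difference was 3.39 (SE 0.0442). With a pseudocount of 0.1 the log2 difference was 3.95, since adding 1 FPKM understates the change of a low gene. *P4ha1* (ENSMUSG00000019916) was already well expressed, at 29.8, 30.9, 31.0 and 31.7 FPKM with DMSO, and was at 53.8, 53.5, 54.7 and 57.7 FPKM with DADA. The groups did not overlap either, but the ratio of the means, 30.9 ± 0.809 and 54.9 ± 1.94 FPKM (SD, n = 4), was 1.78 and the log2 difference 0.81 (SE 0.0315).

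In consequence, *P4ha2* was 4.68% to 5.37% of the summed *P4ha1* and *P4ha2* FPKM in the DMSO libraries and 31.0% to 34.0% in the DADA libraries. The sum itself was 31.3 to 33.4 and 79.5 to 83.7 FPKM. The third alpha subunit gene, *P4ha3*, was listed at 0 in all 8 libraries. *P4hb*, which also encodes protein disulfide isomerase, rose from 129 ± 3.73 to 296 ± 1.62 FPKM (log2 difference 1.2, limma, adjusted p = 7.88e-11). The FPKM of *P4hb* was 4.00 to 4.35 times that of *P4ha1* with DMSO and 5.14 to 5.50 times with DADA.

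*Vegfa* (ENSMUSG00000023951) encodes the secreted vascular endothelial growth factor A, which drives the growth of blood vessels. Its levels were 25.3, 26.5, 25.9 and 25.7 FPKM with DMSO and 48.8, 49.1, 48.8 and 48.7 FPKM with DADA. The DADA libraries were almost identical to each other. The means were 25.8 ± 0.496 and 48.8 ± 0.178 FPKM (SD, n = 4), a ratio of 1.89, with a log2 difference of 0.89 (SE 0.0233). *Vegfb*, a related growth factor, rose from 5.49 ± 0.652 to 8.41 ± 1.16 FPKM (log2 difference 0.53, limma, adjusted p = 0.000633), so that the ratio of *Vegfa* to *Vegfb*, 4.23 to 5.39 and 4.87 to 6.52, overlapped between the groups. The receptor genes *Flt1* and *Kdr* were not above the filter, and the coreceptor gene *Nrp1* fell from 3.41 ± 0.137 to 2.71 ± 0.202 FPKM (log2 difference -0.25, limma, adjusted p = 0.00231).

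Both nuclear regulators were higher with DADA. *Kdm3a* (ENSMUSG00000053470) encodes a demethylase that removes methyl groups from histone H3 lysine 9. It was at 23.9, 22.4, 20.8 and 22.1 FPKM with DMSO and at 58.1, 61.2, 60.02 and 58.8 FPKM with DADA. The groups were separated by more than the whole DMSO level. The means were 22.3 ± 1.25 and 59.5 ± 1.36 FPKM (SD, n = 4), a ratio of 2.67, and the log2 difference was 1.38 (SE 0.0390). Its close relative *Kdm3b* was at 15.2 ± 0.880 and 15.0 ± 0.697 FPKM, with overlapping groups (limma, adjusted p = 0.747), and its log2 difference of -0.018 turned to 0.012 when libraries were rescaled to the same total. *Jmjd1c*, the remaining relative, rose by 0.22 on the log2 scale (limma, adjusted p = 0.00032). *Kdm3a* FPKM was 1.36 to 1.69 times that of *Kdm3b* with DMSO and 3.75 to 4.19 times with DADA.

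*Mxi1* (ENSMUSG00000025025) encodes a repressor that binds the Myc partner Max and competes with Myc for it. It was at 19.2, 18.1, 17.3 and 18.03 FPKM with DMSO and at 63.0, 64.0, 66.0 and 64.5 FPKM with DADA. No DADA library came near the DMSO range. The means were 18.1 ± 0.784 and 64.4 ± 1.27 FPKM (SD, n = 4), a ratio of 3.55, and the log2 difference was 1.77 (SE 0.0331). *Myc* rose as well, from 121 ± 4.2 to 172 ± 4.28 FPKM (log2 difference 0.50, limma, adjusted p = 2.13e-07), as did *Max* (0.33, limma, adjusted p = 1.1e-05). The ratio of *Mxi1* to *Myc* was 0.144 to 0.155 with DMSO and 0.364 to 0.382 with DADA. Of the other repressors of this family, *Mxd1* rose from 5.59 ± 0.312 to 15.0 ± 0.663 FPKM (1.28, limma, adjusted p = 8.16e-09) and *Mxd4* from 3.82 ± 0.225 to 7.73 ± 0.295 FPKM (0.86, limma, adjusted p = 1.65e-07). *Mxd3*, in contrast, fell from 4.32 ± 0.178 to 3.41 ± 0.369 FPKM (-0.28, limma, adjusted p = 0.00404).

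*Ndrg1* (ENSMUSG00000005125) encodes a cytoplasmic stress-responsive protein that the kinase SGK1 phosphorylates. It was at 22.2, 22.4, 22.4 and 20.6 FPKM with DMSO and at 123, 122, 122 and 120.2 FPKM with DADA. Replicate 4 was the lowest in each group. The means were 21.9 ± 0.899 and 122 ± 1.12 FPKM (SD, n = 4), a ratio of 5.56, and the log2 difference was 2.42 (SE 0.0302). *Ndrg2* moved in the same direction, from 8.97 ± 0.546 to 37.0 ± 1.18 FPKM (1.93, limma, adjusted p = 2.06e-10). *Ndrg4* was at 0.30 ± 0.0963 and 1.52 ± 0.115 FPKM (0.96). It passed the filter only through DADA, so no p-value is given for it. *Ndrg3* was at 23.1 ± 0.629 and 22.0 ± 0.479 FPKM with overlapping groups (limma, adjusted p = 0.0712). *Ndrg1* was therefore 0.879 to 0.995 times the level of *Ndrg3* with DMSO and 5.31 to 5.66 times with DADA. The kinase gene *Sgk1* was at 4.09 ± 0.504 and 3.55 ± 0.117 FPKM and was not called (limma, adjusted p = 0.0756), but without DMSO 1 it was called lower (limma, adjusted p = 0.0146).

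*Ankrd37* (ENSMUSG00000050914) encodes a small ankyrin repeat protein. Its levels were 3.37, 2.93, 1.95 and 2.97 FPKM with DMSO and 36.2, 31.9, 30.2 and 34.5 FPKM with DADA. DMSO 3 was the lowest library, as for *Hilpda*, and the groups did not overlap. The means were 2.80 ± 0.601 and 33.2 ± 2.65 FPKM (SD, n = 4), a ratio of 11.8, and the log2 difference was 3.18 (SE 0.11), the largest SE of the 10. Its transcript is short, 927 bases in GENCODE M21, so with the estimated depth the DMSO values stood for only about 25 to 46 fragments and the DADA values for 431 to 599. Its exons overlap those of *Ufsp2* on the opposite strand, the gene of a UFM1 protease, which was at 19.5 to 21.2 FPKM with DMSO and 27 to 28.8 FPKM with DADA. Whether the counting used strand is not stated, so reads of the overlap cannot be told apart. The level of *Ankrd37* is uncertain to that extent. Exons of *Ndrg1* and *Mxi1* also overlap genes on the opposite strand. No level is given for those genes, so the same limit could not be checked there.

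**Figure D2:**
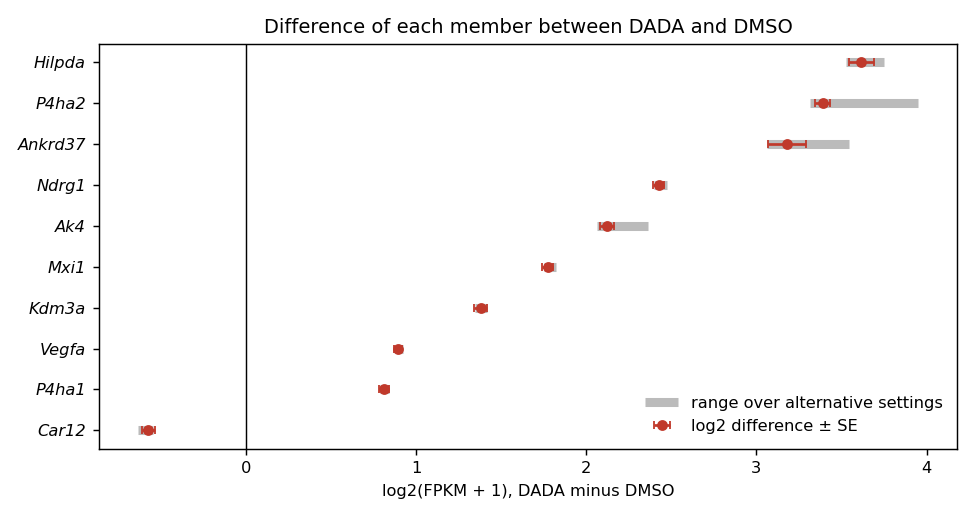
Difference between DADA and DMSO of each of the 10 genes on the log2(FPKM + 1) scale (red points, bars SE), with the range over 17 alternative settings in grey. The points run from 3.62 for *Hilpda* to -0.57 for *Car12*, and the grey range is widest for *P4ha2*, from 3.32 to 3.95.

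The order of the 10 genes by level was not the same in the groups. With DMSO it ran, from the highest, *P4ha1*, *Vegfa*, *Kdm3a*, *Ndrg1*, *Mxi1*, *Car12*, *Hilpda*, *Ak4*, *Ankrd37* and *P4ha2*, and only the ranges of the neighbours *Kdm3a* and *Ndrg1* overlapped. With DADA it ran *Ndrg1*, *Hilpda*, *Mxi1*, *Kdm3a*, *P4ha1*, *Vegfa*, *Ankrd37*, *P4ha2*, *Ak4* and *Car12*, with no overlap between neighbours. The genes with the lowest DMSO levels, *P4ha2*, *Ankrd37*, *Ak4* and *Hilpda*, were among those with the largest ratios, and the most abundant ones, *P4ha1* and *Vegfa*, had the smallest increases. *Ndrg1*, with a ratio of 5.56 at a higher DMSO level than *Ak4* (5.24), and *Car12*, the gene that was lower, did not follow this order. The DMSO level is also the divisor of the ratio, in genes selected on this contrast. Nothing is read from the order.

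Other genes of the pathway were read from lists in the same fit. Over all genes tested, 30.9% were called higher, 35.3% lower and 66.2% in either direction. The lists were chosen with earlier results of these data known, so nothing is read from their counts against these shares. The p-values of their genes likewise describe the spread between these libraries and are not independent support. Of 39 further nonglycolytic HIF targets, 32 were tested, of which 29 were called higher, 1 lower and 2 not called, with a median log2 difference of 1.15. *Adm*, *Nos2* and *Tmem45a*, named after their values were seen, were below 1 FPKM in every DMSO library and passed the filter only through DADA, and without them 26 of 29 were higher and the median was 1.12. By the largest difference, these were *Cxcr4*, a chemokine receptor (3.77 ± 0.405 to 36.9 ± 0.663 FPKM, log2 difference 2.99, limma, adjusted p = 5.9e-11), the mitophagy receptors *Bnip3* (2.85, limma, adjusted p = 2.68e-12) and *Bnip3l* (2.25, limma, adjusted p = 5.09e-12), and *Gbe1*, the glycogen branching enzyme (2.21, limma, adjusted p = 4.39e-11). *Adora2b*, an adenosine receptor, fell from 6.01 ± 0.211 to 4.88 ± 0.186 FPKM (-0.25, limma, adjusted p = 0.00051). *Angptl4*, a secreted lipase inhibitor, and *Stc2*, a secreted glycoprotein, were the 2 not called, and both are named after their values were seen. *Angptl4* was at 3.90 ± 0.590 and 3.03 ± 0.850 FPKM (limma, adjusted p = 0.0854), and was called lower without DADA 1 (limma, adjusted p = 0.00600) or without DMSO 4 (limma, adjusted p = 0.0365). *Stc2* was at 21.0 ± 0.400 and 20.8 ± 0.888 FPKM (limma, adjusted p = 0.72).

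The glycolytic targets were more divided. All 21 were tested, with 15 higher, 5 lower and 1 not called, and a median log2 difference of 1.00. Of all genes tested, 30.9% were called higher and 35.3% lower. The glucose transporters went in opposite directions, with *Slc2a3* rising from 27.6 ± 2.23 to 178 ± 4.52 FPKM (2.65, limma, adjusted p = 5.72e-11) and *Slc2a1* falling from 116 ± 3.66 to 29.1 ± 1.27 FPKM (-1.96, limma, adjusted p = 4.75e-11). *Aldoc*, an aldolase (2.76, limma, adjusted p = 1.35e-11), and *Slc16a3*, a lactate exporter (2.18, limma, adjusted p = 6.15e-09), rose, while *Pkm*, pyruvate kinase (-1.34, limma, adjusted p = 3.08e-11), and the hexokinases *Hk1* (-1.10, limma, adjusted p = 2.23e-10) and *Hk2* (-1.08, limma, adjusted p = 1.07e-10) fell. *Pdk1*, which encodes a kinase that DADA inhibits, also fell (-1.06, limma, adjusted p = 3.53e-10), and *Eno2*, an enolase, was not called (limma, adjusted p = 0.313), both named after their values were seen. *Gapdh* was called higher (1.64, SE 0.516, limma, adjusted p = 0.0175) but is uncertain, as its values of 26.2 to 145 and 119 to 385 FPKM overlapped and near-identical gene copies can share its reads.

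Of the 10 genes of HIF itself and its sensors, 8 were tested, 7 were called higher and none lower, with a median of 0.40. The shares over all genes tested were 30.9% higher and 35.3% lower. *Hif1a* rose from 210.2 ± 5.91 to 293 ± 4.98 FPKM (log2 difference 0.48, limma, adjusted p = 8.99e-08). The hydroxylases *Egln3*, from 17.4 ± 0.576 to 123 ± 2.26 FPKM (2.75, limma, adjusted p = 2.68e-12), and *Egln1*, from 21.8 ± 0.567 to 70.3 ± 1.40 FPKM (1.65, limma, adjusted p = 3.08e-11), rose most. *Vhl* (0.55, limma, adjusted p = 1.4e-06), *Egln2* (0.26, limma, adjusted p = 0.0058), the asparagine hydroxylase *Hif1an* (0.19, limma, adjusted p = 0.00376) and *Hif3a* (0.32, limma, adjusted p = 0.0117) rose by less, and the call of *Hif3a*, at 0.866 ± 0.159 and 1.33 ± 0.245 FPKM, was lost with quantile normalization (limma, adjusted p = 0.437). *Arnt* was at 19.9 ± 0.609 and 20.1 ± 0.321 FPKM and was not called (limma, adjusted p = 0.668), and its log2 difference of 0.016 was -0.0053 without DMSO 4. *Epas1* and *Arnt2* stayed below the filter.

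**Figure D3:**
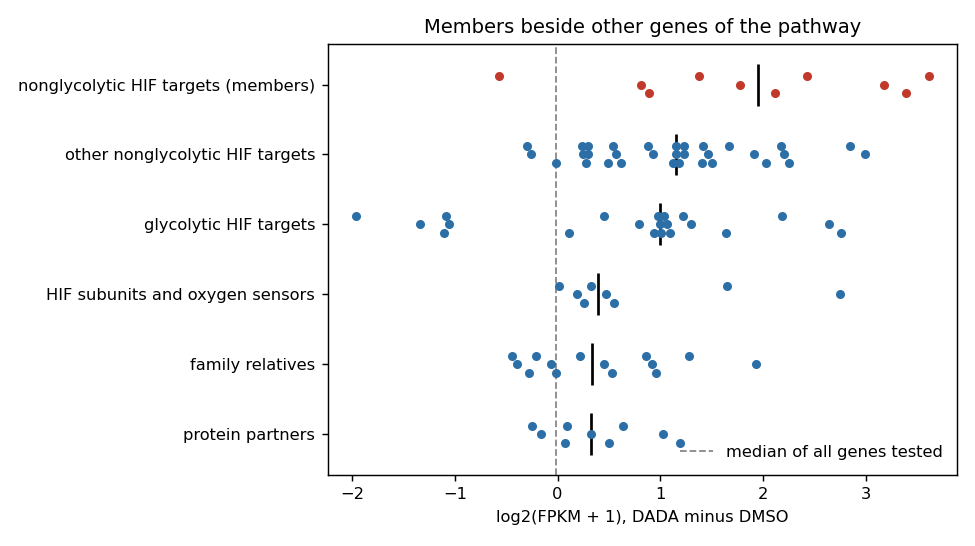
Log2(FPKM + 1) difference between DADA and DMSO for each tested gene of 6 lists, with the median of the list as a black bar and the median of all genes tested, -0.02, as a dashed line. The 10 nonglycolytic targets (red, median 1.95) are shown above the other nonglycolytic targets (1.15), the glycolytic targets (1.00), HIF subunits and sensors (0.40), family relatives (0.34) and protein partners (0.33).

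Of 24 family relatives of the 10 genes, 14 were tested, with 8 higher, 4 lower and 2 not called, and a median of 0.34, beside 30.9% of all genes called higher and 35.3% called lower. Without *Ndrg4*, *Car5b* and *Car13*, which were below 1 FPKM in every DMSO library, 5 of 11 were higher and 4 lower, and the median was -0.02. Of 12 protein partners, 9 were tested, 5 were higher, 1 lower and 3 not called, with a median of 0.33, and the 6 called are close to the 66.2% called over all genes. The NDRG and Mxi1 families each had a relative with a difference above 1 (*Ndrg2*, *Mxd1*), while *Ak3* and *Ak6* fell beside *Ak4*.

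**Figure D4:**
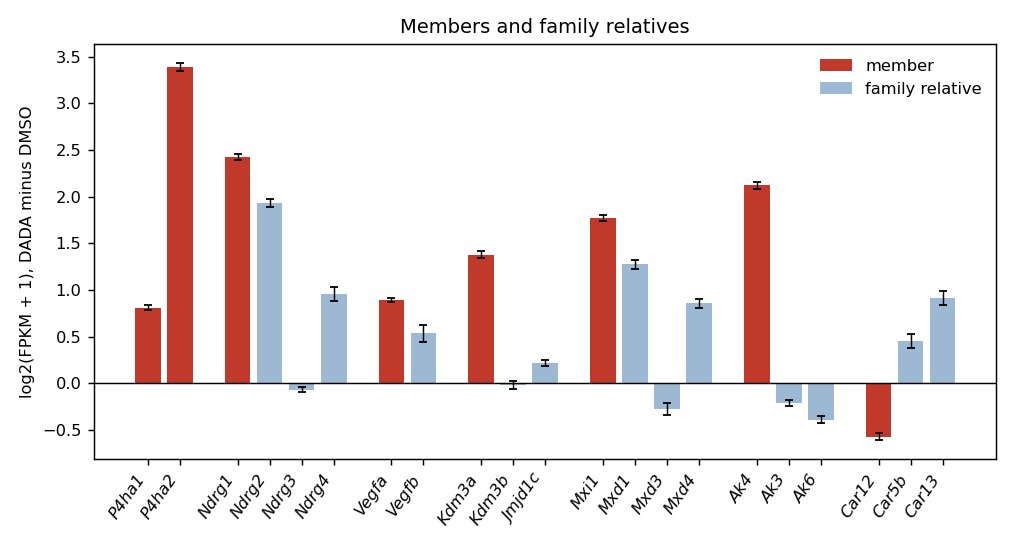
Log2(FPKM + 1) difference between DADA and DMSO (bars, with SE) for 8 of the 10 genes, those with a tested family relative (red), and tested relatives (blue). *Ak4*, at 2.12, stands beside *Ak3* and *Ak6*, which fell by 0.21 and 0.39, and *Car12*, at -0.57, beside *Car5b* and *Car13*, at 0.46 and 0.92. *Car5b*, *Car13* and *Ndrg4* passed the filter only through the DADA libraries.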

How the data were processed

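Mouse splenic CD8+ T cells were profiled by bulk RNA-seq with paired reads, 4 libraries with DMSO and 4 with DADA. The table the authors deposited holds FPKM values for each library, without read counts. The submitters' notes name CASAVA 1.8.2, FastQC 0.11.9, HISAT2 2.0.5, StringTie 1.3.3, Picard 1.41 and SAMtools 0.1.18, and builds GRCh38 and GRCm39, with no role given. No gene coordinates are printed except those of RefSeq upstream stretches. The labels and the methods name different library kits, and the use of strand in counting is not stated in the sources used here.

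Samples were grouped by title. Values were analysed as log2(FPKM + 1), which understates the change of low genes, for genes with at least 1 FPKM in at least 4 libraries, with limma 3.58.1 in R 4.3.3 (eBayes with trend, Benjamini-Hochberg over the 10666 genes, two-sided, threshold 0.05). Depth was estimated from the steps of low FPKM values in 4431 genes with 1 transcript in GENCODE M21, where 29.69% to 44.07% of low values lay within 0.1 of a whole fragment and chance gives 20%, so no count test was run.

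The 10 genes and all lists (further targets, HIF genes, relatives, partners, cell markers) were chosen with earlier results of these data known. Named were the 10, any gene of the HIF, relative and partner lists, and of both target lists the 4 largest called differences each way with a mean of at least 5 FPKM. The alternatives were a pseudocount of 0.1, no filter, a mean of at least 5 FPKM, quantile normalization, median-ratio size factors, libraries rescaled to a common total (TPM), eBayes with no trend, the replicate number as a block and each library left out. A fit without assembled transcripts was chosen after seeing the data. *Trac*, a CD8 T cell marker on the list, was not found by symbol. Python 3.11.15, numpy 2.4.6, pandas 2.3.3 and matplotlib 3.10.9 were used. Some genes of the lists are counted but not reported here one by one.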

Additional observations from a re-analysis of the deposited data

Results flagged for a closer look

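In 3 of the 20 groups of 4 libraries checked for the 10 genes, 1 library stood apart from its group, with the gap to its nearest neighbour above Dixon's critical share of the group's range. They were *P4ha2* in DADA 1 (ratio 0.875), *Ndrg1* in DMSO 4 (0.883) and *Ndrg1* in DADA 4 (0.836). Chance gives about 1 in 20. In each case the other group lay far outside the range. Without the library in question, *P4ha2* and *Ndrg1* kept their direction.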

How the results depend on the processing

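All 10 genes kept their direction and their call under the 17 alternatives, and 13 of the 170 recomputed differences moved by more than the spread between replicates, mostly with a pseudocount of 0.1. Over all genes, 7064 calls became 7868 without a filter, 5741 where the mean was at least 5 FPKM, and 6723 to 6897 with a library left out. The balance of directions moved with the scaling, from 3296 higher and 3768 lower to 3607 and 3379 after rescaling to the same total, 3545 and 3528 with median-ratio scaling, and 3005 and 4116 with quantile normalization. Of 84 listed genes tested, 75 kept direction and side of the threshold wherever they were tested. The call of *Plod1* (0.13), *Hif3a* (0.09) and *Car5b* (0.19) was lost with quantile normalization. With it *Angptl4* (-0.42) and *Sgk1* (-0.26) became called. Small differences turned in 4 uncalled genes. *Stc2* was 0.016 after rescaling to the same total, 0.0066 with median-ratio scaling and 0.00013 with quantile normalization, and -0.032 to 0.014 with a library left out. *Kdm3b* was 0.012 after rescaling to the same total, 0.0027 with median-ratio scaling and -0.052 to 0.011 with a library left out. *Arnt* was -0.0053 to 0.026 with a library left out, and *Abhd5* was -0.029 with quantile normalization. Their causes were not tested.

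Whether same-numbered libraries were paired was not settled. The correlations of their deviations over 6268 genes were 0.2501, -0.1441, -0.0287 and 0.1843. Those of differently numbered libraries ran from -0.4634 to 0.2259. Deviations from a group's own mean depend on each other, so these correlations cannot decide it. With the replicate number as a block, 6995 genes were called, and all 10 of the genes described remained called. *Angptl4* was called lower under the block (limma, adjusted p = 0.0353). The FPKM values carry no counts, so low levels, such as *Ankrd37* with DMSO, have no exact counting error.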
